A study of Hordeum vulgare with 12 samples.

Results

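A group of 150 barley genes had lower RNA levels at the later of 2 inflorescence stages in both wild-type (WT) and mutant plants. They were chosen from 29014 genes by the authors' group means. A member had a stage difference, W3.5 minus W2.0, of -1 or less on the log2(FPKM + 1) scale in each genotype. FPKM values count the reads of a gene per unit of its length and of the sequencing depth, and 1 FPKM was added so that genes near 0 do not give extreme ratios. This gave 166 genes, and 16 with a mutant minus WT difference of at least 1 in the same direction at both stages were left out. A further 622 genes met the limit in WT alone and 311 in the mutant alone.

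RNA-seq was made from whole inflorescences of Hordeum vulgare cultivar Golden Promise, with 3 libraries in each of 4 groups. WT and mutant plants were each sampled at both stages under normal growth conditions. A replicate pooled many spikes, so differences between single plants cannot be seen. The design text of the series gives W3.0 where the sample labels give W3.5, and the labels were followed. The series names FASCIATED EAR (FEA) genes, but the gene that is altered in the mutant, its allele and the number of independent lines are not stated in these sources.

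The W numbers belong to the Waddington scale, which follows the barley spike from the first visible ridges to the floral organs. At the double ridge stage, spikelet meristems become visible along the flanks of the inflorescence meristem. Later, these meristems form glumes, lemmas and the first floral organs. In maize, fea mutants have enlarged and flattened inflorescence meristems, and FEA genes act in the signalling that limits the pool of stem cells. A gene whose RNA becomes rarer between these stages in bulk tissue may be expressed in fewer cells or at a lower level per cell, which cannot be told apart here.

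Genes are given by identifier, because neither the deposited table nor the reference table pairs these identifiers with names, and no role can be given for them. The first digit of an identifier gives the chromosome, and a 0 marks a gene not placed on one. Lists of pathway genes and of leaf markers, which need names, could not be applied, so the labelled tissue could not be checked against markers.

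Depth behind the FPKM values was 63298092 to 75896357 reads per library. The deposited table holds 1 mean per group, and reads of single libraries could be recovered from these means for 11357 genes, of which 24 were members. The 3 recovered libraries of a group are called A, B and C by falling depth. Their match to the replicate numbers of the labels is unknown. The 4094 recovered genes that reached 1 FPKM in 3 or more libraries, called tested genes here, had a median of 1.62 FPKM in WT W2.0 library A and of 1.71 FPKM in mutant W2.0 library A. The other 10 libraries had medians of 1.77 to 2.06 FPKM.

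The members covered a wide range of levels. At W2.0, their group means ran from 1.39 to 1510.1 FPKM in WT, with a median of 15.9. The mutant range was 1.23 to 1435 FPKM, with a median of 9.54. At W3.5, the median was 2.12 FPKM for WT and 3.22 FPKM for mutant plants. By the mean over both genotypes at W2.0, 10 members lay under 2 FPKM, 52 from 2 up to 10, 57 from 10 up to 50, 14 from 50 up to 100, and 17 at 100 FPKM or more. The group was therefore made up mostly of genes of low to moderate level. At W3.5, 40 members were under 0.5 FPKM in WT, 29 in the mutant and 23 in both.

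Summed over the members, the WT level was 10016.6 FPKM at the earlier stage and 1670.4 FPKM at the later one. The mutant sums were 6379 and 2034 FPKM. The members thus made up 1.42% of the summed FPKM of all genes in WT at W2.0 and 0.234% at W3.5, against 0.90% and 0.285% in the mutant. The 10 members with the highest level supplied 59.1% of the WT sum and 61.0% of the mutant sum at W2.0.

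**Figure D1:**
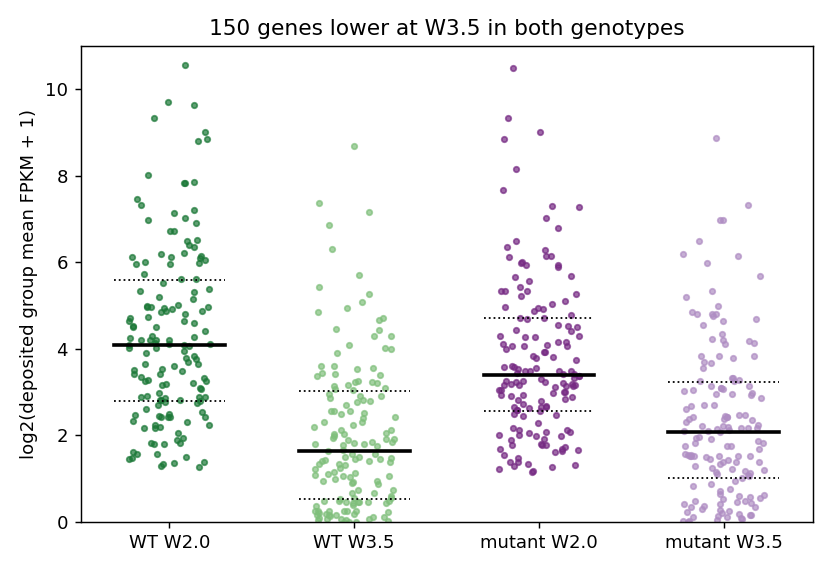
Each point is 1 of the 150 members, placed by its deposited group mean as log2(FPKM + 1) in WT and mutant at W2.0 and W3.5, with the median as a thick line and the quartiles as dotted lines. At W2.0 the medians were 15.9 FPKM for WT and 9.54 FPKM for the mutant, and at W3.5 they were 2.12 and 3.22 FPKM.

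Since the stage difference chose the members, its size is given as a description with no test. The median stage difference was -2.07 in WT, with a range of -6.72 to -1.02, and -1.30 in the mutant, with a range of -3.13 to -1.01. Over the 19367 genes that reached 1 FPKM in any group mean, called expressed genes here, the median was 0.06 in WT and -0.02 in the mutant. The limit was met by 4.07% of these genes in WT, by 2.46% in the mutant and by 0.857% in both. By the choice of members, nothing can be read from all 150 meeting it. At W3.5 the median member kept 14.7% of its W2.0 level in WT and 31.0% in the mutant.

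The stage difference was larger in WT for 118 members and larger in the mutant for 32. It differed by less than 0.5 between the genotypes for 56 members. A difference of at least 2 was seen in 79 members in WT, in 13 in the mutant and in 4 in both. The mutant values lay close to the limit, as the upper and lower quartiles of -1.15 and -1.58 show, whereas the WT quartiles were -1.42 and -3.03.

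**Figure D2:**
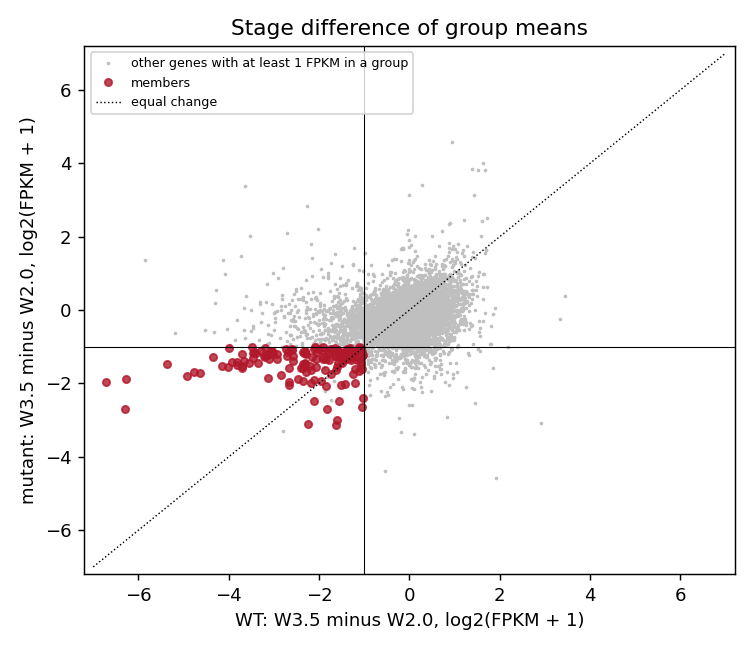
The horizontal axis is the WT and the vertical axis the mutant stage difference, W3.5 minus W2.0, of the group means in log2(FPKM + 1), with the 150 members in red, other expressed genes in grey, the limit of -1 as solid lines and equal change as a dotted line. Of the members, 118 lie above the dotted line, where the WT difference is the larger, and the mutant values stay between -3.13 and -1.01.

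In the group means, the median mutant minus WT difference of the members was -0.51 at the earlier stage and 0.27 at the later one. Mutant means were under WT at W2.0 for 105 members and over WT at W3.5 for 105, and 72 members did both. At W2.0 the mutant was lower by at least 1 (log2) for 42 members, or 28.0%, against 1.9% of all expressed genes. It was higher by that size for 4 members, or 2.67%, against 2.56%. At W3.5 the mutant was higher by at least 1 for 16 members, or 10.7%, against 2%, and lower for 2 members, or 1.33%, against 0.805%. The WT difference exceeded the mutant difference by at least 1 for 57 members, or 38.0%, against 2.97%, and the reverse held for 4 members, or 2.67%, against 3.17%. These shares come from the 4 means that the rule used and are a description of the members.

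Members with a high level had the larger WT differences. The 31 members with a mean of at least 50 FPKM at W2.0 had a median stage difference of -2.70 in WT and -1.34 in the mutant. The 119 members below that level had medians of -1.84 and -1.28. On the log2(FPKM + 1) scale, a gene of low level has less room for a large difference.

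The highest member at W2.0 was HORVU2Hr1G014020 on chromosome 2H. WT means were 1510.1 and 411 FPKM at the earlier and later stage, and mutant means 1435 and 466 FPKM. The genotypes were close at both stages, with mutant minus WT differences of -0.07 and 0.18. HORVU2Hr1G013940 had 799 and 163 FPKM in WT, against 514 and 158 FPKM in the mutant. HORVU2Hr1G013950 had 639 and 115 FPKM in WT, against 462 and 125 FPKM in the mutant. For the last 2 genes the later level was nearly the same in both genotypes and the earlier one lower in the mutant, by 0.63 and 0.47 on the log2 scale.

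HORVU4Hr1G006100 had 834 and 77.9 FPKM in WT at the earlier and later stage, but 283 and 125 FPKM in the mutant. HORVU4Hr1G006140 had 463 and 41.7 FPKM in WT, against 155 and 69.2 FPKM in the mutant. In this pair on 4H the WT difference was -3.40 and -3.44, and the mutant difference was -1.17 and -1.15. HORVU1Hr1G065660 (228 and 18.7 FPKM in WT, against 77.3 and 27.7 FPKM in the mutant) and HORVU3Hr1G020520 (227 and 25.1 FPKM in WT, against 63.1 and 26.8 FPKM in the mutant) were also higher in WT than in the mutant at W2.0, by 2.95 and 3.60 times. HORVU1Hr1G017700 showed less of this, with 258 and 50.8 FPKM in WT, against 203 and 89.5 FPKM in the mutant.

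HORVU5Hr1G002120 on 5H went the other way among the 10 highest members. Its mean was 444 FPKM at W2.0 and 143 FPKM at W3.5 in WT, and 641 and 72.5 FPKM in the mutant. It had the largest stage difference of any member in the mutant, -3.13, against -1.63 in WT. The last of the 10, HORVU7Hr1G088260, had WT means of 513 and 5.51 FPKM at the earlier and later stage, and mutant means of 60.5 and 8.5 FPKM.

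Ranked by the smaller of its 2 stage differences, HORVU7Hr1G088260 also came first, with -6.31 in WT and -2.69 in the mutant. HORVU5Hr1G106640 followed with -2.25 and -3.10, from means of 15.3 and 2.43 FPKM in WT, against 22 and 1.67 FPKM in the mutant. HORVU1Hr1G049270 had 4.62 and 0.309 FPKM in WT, against 4.95 and 0.0744 FPKM in the mutant, so that both differences exceeded 2. The fourth member with both differences past 2, HORVU1Hr1G043890, had 30.1 and 3.91 FPKM in WT, against 9.71 and 1.59 FPKM in the mutant.

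The next 6 by this rank had smaller differences between -1.99 and -1.90. HORVU2Hr1G070700 was the most unequal between the genotypes, with 147 and 0.40 FPKM in WT, against 7.66 and 1.22 FPKM in the mutant. Its WT difference of -6.72 was the largest of any member, against -1.97 in the mutant. HORVU1Hr1G070690 was nearly equal in both genotypes, with 61.7 and 15.0 FPKM in WT, against 36.0 and 8.64 FPKM in the mutant, and differences of -1.97 and -1.94. HORVU4Hr1G059390 was higher in the mutant at both stages, with 20.3 and 3.92 FPKM in WT, against 29.5 and 7.18 FPKM in the mutant. HORVU4Hr1G002800, HORVU2Hr1G110230 and HORVU3Hr1G028080 made up the rest.

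The limit of -1 fell in a region dense with genes. In 31 members the smaller difference lay between 1 and 1.1 in size, and 42 genes lay between 0.9 and 1. Just inside were HORVU5Hr1G109940 at -1.006, HORVU2Hr1G089050 at -1.008 and HORVU5Hr1G012900 at -1.009, each for its smaller difference. Just outside were HORVU4Hr1G079620 at -0.995, HORVU1Hr1G082670 at -0.991 and HORVU3Hr1G077880 at -0.984. In all 6 genes the smaller difference was that of the mutant. The WT difference ran from -1.11 for HORVU5Hr1G109940 to -3.49 for HORVU5Hr1G012900.

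The members lay on all 7 chromosomes, with 22 on 1H, 27 on 2H, 24 on 3H, 17 on 4H, 29 on 5H, 12 on 6H and 10 on 7H, and 9 were unplaced. As a share of the expressed genes, this was 0.372% on 7H, 0.555% on 6H and 0.741% to 0.956% on the other chromosomes.

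Members often lay close to each other. Identifiers are numbered along each chromosome, so the listed genes were put in that order. Of the 141 placed members, 20 (14.2%) had another member in the next place, against 0.948% of other expressed genes. Another member lay within 5 places for 39 (27.7%), against 4.46%. These 39 formed 16 runs, of which 12 were pairs, 3 were triplets and 1 held 6 members. Position was not used by the rule, but neighbours are not independent of each other, since near-identical copies can share reads, and the share was given no test.

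The longest run, on 2H, held 6 of the 8 listed genes from HORVU2Hr1G013920 to HORVU2Hr1G014020, among them 3 of the 4 highest members. It supplied 31.7% of the members' summed level in WT at W2.0 and 40.5% in the mutant at W2.0. Its members ranged in WT at W2.0 from 3.47 FPKM for HORVU2Hr1G013930 to the 1510.1 FPKM given above. The other two genes in the stretch did not have this pattern. HORVU2Hr1G014000 had 66.0 and 61.8 FPKM in WT, against 70.5 and 67.2 FPKM in the mutant, and HORVU2Hr1G013970 was at 0.106 FPKM or less in every group.

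In 3 of the 12 pairs, the ratio of the second member to the first moved by less than 1.5 times over the 4 group means. For HORVU4Hr1G006140 and HORVU4Hr1G006100 this ratio stayed between 0.536 and 0.556. For HORVU5Hr1G113790 and HORVU5Hr1G113780 it stayed between 1.04 and 1.12, with WT means of 16.2 and 15.6 FPKM at W2.0. For HORVU2Hr1G083490 and HORVU2Hr1G083430 it stayed between 1.43 and 1.72. How the authors counted reads that match several genes is not given, so the levels of the single genes in these pairs are uncertain. In the other 9 pairs the ratio moved by 1.75 to 83.2 times.

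Between the members of these runs lay 17 other listed genes. Of these, 9 were under 1 FPKM at W2.0 in both genotypes and so could not be lower by 1 on the log2(FPKM + 1) scale. Of the other 8, 1 was lower by at least 1 in WT and 0 in the mutant. The 1 gene was HORVU3Hr1G020500, with 61.7 and 2.81 FPKM in WT, against 11.3 and 7.61 FPKM in the mutant. It stands between HORVU3Hr1G020490 and HORVU3Hr1G020520, which had WT differences of -4.02 and -3.13.

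Genes in the place next to a member, but not members themselves, were lower by at least 1 in WT in 10.9% of 174 cases, against 3.34% of all 18350 placed expressed genes that were no members. In the mutant the share was 4.02% against 1.70%. At 5 places the shares were 3.05% and 2.03%. The median stage difference of the nearest genes was 0.02 in WT and -0.06 in the mutant, so that the typical neighbour did not share the difference.

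**Figure D3:**
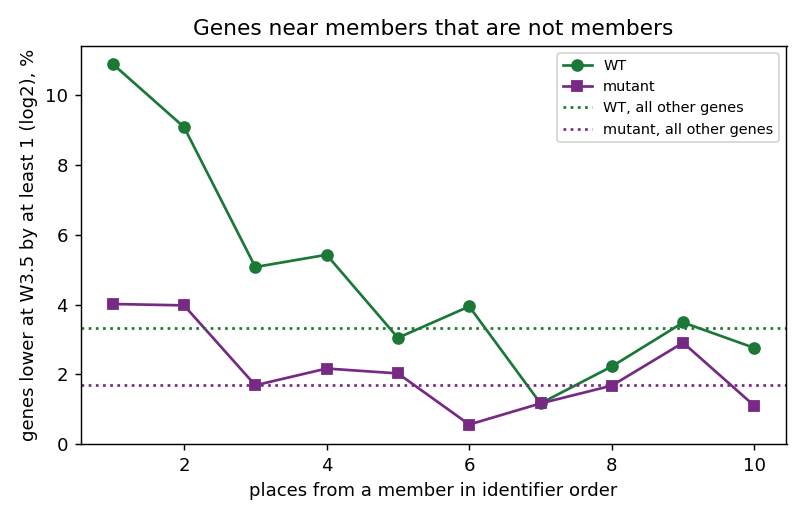
The horizontal axis is the distance from a member in places of identifier order. A gene near several members counts at each of its distances. The vertical axis is the percentage of non-member genes there whose group mean was lower at W3.5 by at least 1 (log2). Circles are for WT, squares for the mutant and dotted lines for all other genes. The WT share went from 10.9% in the next place to 3.05% at 5 places, near the 3.34% of all other genes.

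The spread between libraries could be seen for the 24 members with recovered reads, all of low level. Of the 41 members with a highest group mean under 8 FPKM, 20 were recovered. The highest group mean of the 24 ran from 1.43 to 9.18 FPKM, with a median of 3.52, against 25.1 FPKM for the 126 members whose libraries were not recovered. Their median stage differences in the means were -1.55 in WT and -1.27 in the mutant, against -2.27 and -1.32 for the others. A recovered member had a median of 142.5 reads per library at W2.0 and 12 reads at W3.5, so that the later level rests on few reads. What follows describes these 24 and cannot be carried over to the other members. HORVU4Hr1G054080, HORVU4Hr1G054110 and HORVU5Hr1G109940 did not reach 1 FPKM in 3 libraries, so 21 of the 24 were tested genes. Where the 24 are set beside tested genes, these 3 have no counterpart among the tested genes.

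The level differed strongly between libraries of one group at both stages. In WT, the summed FPKM of the 24 members was 43.5 in library A, 162 in library B and 77.0 in library C at W2.0, and 12.7, 20.1 and 9.80 at W3.5. In the mutant it was 58.8, 61.8 and 114 at W2.0, and 12.3, 14.0 and 24 at W3.5. Every W2.0 sum was above every W3.5 sum, but within W2.0 the highest library had 3.74 times the lowest in WT and 1.94 times in the mutant. Within W3.5 the highest had 2.05 times the lowest in WT and 1.96 times in the mutant. The tested genes as a whole did not differ in this way, with WT W2.0 sums of 9170, 9872 and 9490 FPKM.

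**Figure D4:**
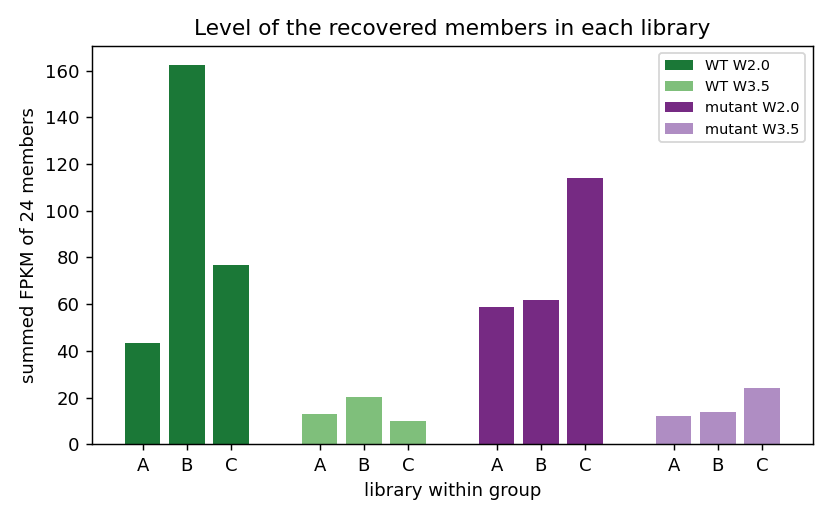
Bars give the FPKM summed over the 24 recovered members in each of the 12 libraries, A to C by falling depth within a group. WT W2.0 library B reached 162 and mutant W2.0 library C 114, and the other W2.0 libraries lay between 43.5 and 77.0.

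In WT at W2.0, library B was the highest of the 3 for 18 members, library C for 6 and library A for 0, while each was the highest for 32.9% to 33.7% of tested genes. In the mutant at W2.0, library C was the highest for 12 members, A for 7 and B for 5, against 38.7%, 26.4% and 34.9% of tested genes. For 10 members, B was the highest in WT and C in the mutant at W2.0. At W3.5, WT library B was the highest for 60.9% of 23 members with reads, against 35.3% of tested genes. Mutant W3.5 library C was the highest for 56.5% of 23, against 30.6%. The highest library supplied a median of 60.8% of the WT sum at W2.0, against 41.5% over the tested genes, and 72.1% of the mutant sum, against 43.8%. It supplied over 66.7% for 8 members in WT and for 13 in the mutant, against 4.27% and 5.52% of tested genes. A rule that needs a high mean at W2.0 favours genes with a high library there. Among all tested genes, such libraries were also unevenly spread. In WT at W2.0, library A was over 3 times the next in 44 tested genes, B in 103 and C in 25. In the mutant at W2.0 these counts were 52, 62 and 123. Whether the members lean on WT library B and mutant library C beyond this was not tested.

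The genes that met the limit in 1 genotype, which were chosen through the same group means, leaned on these libraries but not on them alone. Of 148 tested genes that were lower in WT alone, WT W2.0 library B was the highest for 75%. Of 60 tested genes that were lower in the mutant alone, mutant W2.0 library C was the highest for 66.7%. At W3.5, mutant library C was the highest for 65.5% of 145 genes lower in WT alone, against 30.6% of tested genes. WT W3.5 library B was the highest for 61.7% of the 60 genes lower in the mutant alone, against 35.3%. Whether these libraries differ in exact stage, in sampled tissue or in handling was not tested, since the labels describe all 3 libraries of a group alike.

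**Figure D5:**
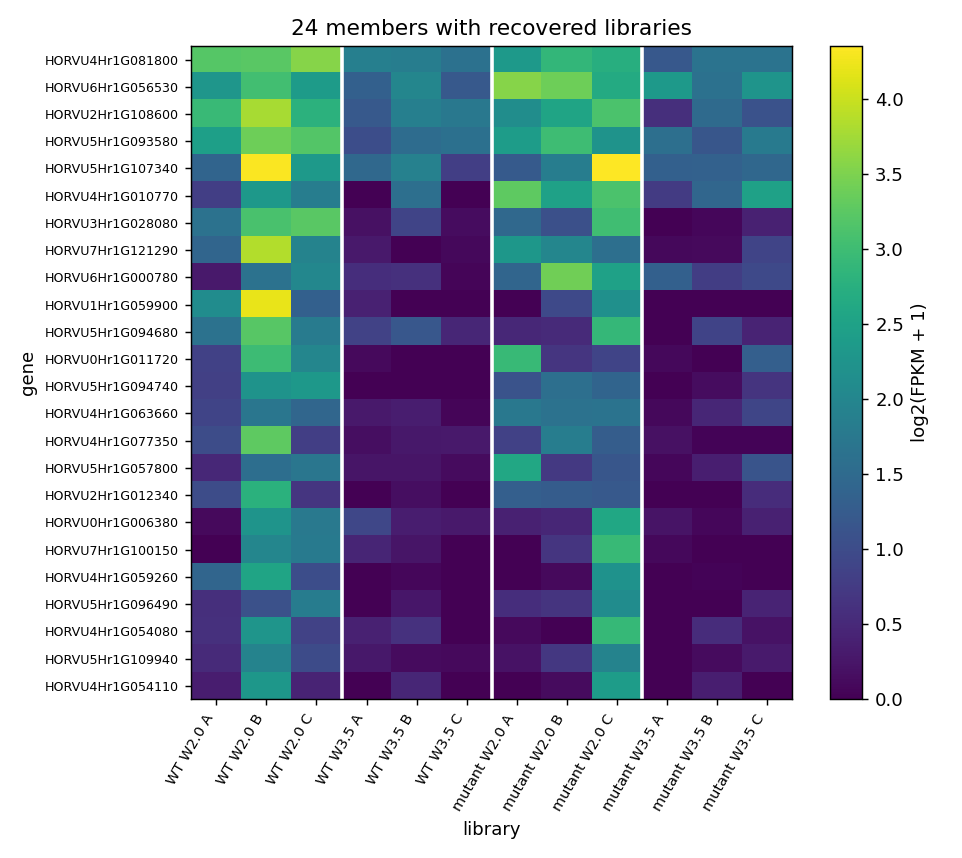
Rows are the 24 recovered members, ordered by their mean log2 level at W2.0, columns are the 12 libraries, and colour gives log2(FPKM + 1). In the uppermost row the 3 W2.0 libraries of a genotype are alike, and in many rows below it 1 bright cell stands alone in WT W2.0 library B or mutant W2.0 library C, as for HORVU4Hr1G054110 at 3.92 and 4.28 FPKM.

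Some members were high in all W2.0 libraries. HORVU4Hr1G081800 on 4H had 8.23, 8.48 and 10.8 FPKM in the WT libraries of W2.0 (libraries A, B and C) and 2.68, 2.61 and 2.09 FPKM at W3.5. The mutant libraries had 4.05, 6.37 and 5.60 FPKM at W2.0 and 1.28, 2.17 and 2.14 FPKM at W3.5. The stages did not overlap in either genotype, and the libraries of a group differed by less than 2 times. The log2 difference was -1.55 ± 0.20 (SE) in WT and -1.14 ± 0.20 in the mutant.

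HORVU2Hr1G108600 on 2H had 6.70, 12.8 and 5.93 FPKM in the WT libraries of W2.0 and 1.31, 2.67 and 2.35 FPKM at W3.5. In mutant plants the values were 3.39, 4.81 and 7.71 FPKM at W2.0 and 0.509, 1.82 and 1.14 FPKM at W3.5. Its differences of -1.57 ± 0.33 and -1.54 ± 0.33 (SE) were nearly equal. HORVU5Hr1G093580 on 5H had 4.47, 9.49 and 8.06 FPKM in the WT libraries of W2.0 and 1.03, 1.91 and 2.03 FPKM at W3.5. Mutant values were 4.29, 7.0 and 3.72 FPKM, then 2.02, 1.24 and 2.48 FPKM, again without overlap. HORVU4Hr1G063660 on 4H had 0.861, 2.26 and 1.71 FPKM in the WT libraries of W2.0 and 0.224, 0.267 and 0.0420 FPKM at W3.5. In the mutant its W2.0 libraries were nearly identical, at 2.35, 2.11 and 2.15 FPKM, against 0.0616, 0.376 and 0.876 FPKM at W3.5.

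Others combined separate stages with an uneven W2.0 group. HORVU3Hr1G028080 on 3H had 2.12, 7.60 and 8.44 FPKM in the WT libraries of W2.0 and 0.144, 0.861 and 0.101 FPKM at W3.5. The mutant had 1.77, 1.09 and 7.12 FPKM, then 0, 0.0588 and 0.319 FPKM. HORVU7Hr1G121290 on 7H had 1.68, 13.3 and 2.86 FPKM in the WT libraries of W2.0, and 0.236, 0 and 0.0652 FPKM at W3.5. Both kept the stages apart in either genotype, although 1 library stood well above the other two in the mutant for the first gene and in WT for the second.

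HORVU5Hr1G094740 on 5H had 0.772, 3.72 and 3.97 FPKM in the WT libraries of W2.0 and 0 reads in all 3 WT libraries at W3.5. Against the level that 3 reads over the group would give, 0.0354 FPKM, its W2.0 mean of 2.82 ± 1.78 FPKM (SD, n = 3) lay at least 79.8-fold higher. The mutant libraries had 1.15, 2.03 and 1.64 FPKM at W2.0 and 0, 0.102 and 0.575 FPKM at W3.5. HORVU1Hr1G059900 on 1H had 0 reads in all 3 mutant libraries at W3.5, and its mutant W2.0 mean of 1.5 ± 1.83 FPKM (SD, n = 3) was at least 55.5-fold above the 0.0270 FPKM of 3 reads. Its 3 mutant W2.0 libraries were at 0, 0.956 and 3.54 FPKM, so 1 of them did not differ from W3.5. In WT it was at 3.32, 17.5 and 1.53 FPKM at W2.0. Such limits cover counting error only.

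At the other end, most of the W2.0 sum came from 1 library in each genotype. HORVU4Hr1G054110 on 4H had 0.267, 3.92 and 0.356 FPKM in the WT libraries of W2.0 and 0, 0.387 and 0 FPKM at W3.5. In the mutant it had 0, 0.0902 and 4.28 FPKM at W2.0 and 0, 0.281 and 0 FPKM at W3.5. The highest library thus supplied 86.3% of the WT sum and 97.9% of the mutant sum, and the stages overlapped. Its neighbour HORVU4Hr1G054080 had 0.520, 3.80 and 0.816 FPKM in the WT libraries of W2.0 and 0.0739, 0 and 6.54 FPKM in the mutant, with the same 2 libraries high, at 74.0% and 98.9% of the sums. HORVU5Hr1G107340 on 5H had 1.65, 19.0 and 4.06 FPKM in the WT libraries of W2.0 and 1.35, 2.60 and 19.4 FPKM in the mutant, against 0.747 to 2.75 FPKM in the 6 libraries of W3.5, and its highest library supplied 76.9% and 83.1% of the W2.0 sums. These 3 members were picked after their values were seen.

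Every WT W2.0 library was above every WT W3.5 library in 17 of the 24 members, against 8.89% of tested genes. The same held in the mutant for 13 members, against 6.86%, and in both genotypes for 11, against 1.44%. The rule used these libraries through their means, and nothing is read from these counts beyond the finding that 13 of the 24 overlapped in at least 1 genotype.

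Whether the 24 members would still meet the limit without 1 library was looked at after the values had been seen. Without WT W2.0 library B, 11 of 24 kept both differences at -1 or below, and the median WT difference moved from -1.55 to -0.96. Without mutant W2.0 library C, 14 kept both, and 9 had a mutant difference smaller than 0.5 in size. Without both libraries, 8 kept both. Without mutant W2.0 library A, 21 did, and without any other single library the count lay between 18 and 24. In HORVU2Hr1G108600, HORVU3Hr1G028080, HORVU4Hr1G081800 and HORVU7Hr1G121290, both differences stayed at -1 or below whichever library was left out.

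Stage and genotype were tested in 1 limma model over the 12 recovered libraries and all 4094 tested genes, 21 of them members, with p-values adjusted by the Benjamini-Hochberg method. In WT, 0.977% of tested genes were called lower and 0.147% higher at W3.5 at an adjusted p under 0.05, and 6 members were among those called lower and 0 among those called higher. The limma adjusted p was 0.00295 for HORVU4Hr1G081800, 0.0205 for HORVU5Hr1G093580 and 0.0282 for HORVU5Hr1G094740. It was 0.0380 for HORVU2Hr1G108600, 0.0380 for HORVU7Hr1G121290 and 0.0459 for HORVU3Hr1G028080. In all 6, every W2.0 library was above every W3.5 library. The count of members called was 1 when WT W2.0 library B or C, or any 1 WT W3.5 library, was left out, 1 with limma-voom and 2 with no filter on low values. The count over all tested genes fell too, from 46 to between 10 and 16 in these fits without 1 library. It was 19 with limma-voom, and 35 of 11357 genes with no filter. The drop was thus not particular to the members. Since the stage difference chose the members, these calls describe the spread between libraries and are not independent evidence of a fall.

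In the mutant, 0.0244% of tested genes, which is 1 gene, were called lower at W3.5, and 0 of 21 members. The limma unadjusted p was under 0.05 for 13 members. Since the stage difference chose the members, nothing is read from that count. The lowest limma adjusted p was 0.0559, for HORVU4Hr1G081800, then 0.196 for HORVU4Hr1G063660 and for HORVU2Hr1G108600, 0.240 for HORVU6Hr1G056530 and 0.241 for HORVU5Hr1G093580. HORVU6Hr1G056530 had 10.9, 9.48 and 5.33 FPKM in the mutant libraries of W2.0 and 4.10, 2.08 and 3.74 FPKM at W3.5. In WT it had 3.86, 7.17 and 4.26 FPKM, then 1.53, 3.00 and 1.32 FPKM. Without mutant W2.0 library A, 1 member was called in the mutant. That fewer genes were called in the mutant than in WT does not show that the genotypes differ.

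That difference was tested by the interaction of genotype and stage. It was called in 0 of 21 members, and 0 had an unadjusted p under 0.05, against 1 of 4094 tested genes called by limma. The interaction estimates of the members ran from -0.50 for HORVU6Hr1G000780 to 1.37 for HORVU1Hr1G059900 on the log2 scale, with SEs of 0.67 and 0.88. A positive value means a smaller difference in the mutant. The median estimate of the 21 members was 0.22, against -0.12 over all tested genes. The SEs of the 21 members ran from 0.28 for HORVU4Hr1G081800, whose estimate was 0.41, to 1.07 for HORVU5Hr1G107340. The 126 members without recovered libraries could not be tested.

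Between mutant and WT, limma called 0 of the 21 members at either stage. The rule had left out genes with a genotype difference of at least 1 in the same direction at both stages. The shares of tested genes called were also small, so nothing is read from this count. At W2.0, limma called 61 tested genes, 0.391% lower and 1.1% higher in the mutant. The 4 members with the lowest limma unadjusted p at W2.0 are given next as values only, and nothing is read from their number. HORVU4Hr1G081800 differed, mutant minus WT, by -0.69 ± 0.20 (SE, log2), with a limma adjusted p of 0.149, and HORVU1Hr1G059900 by -1.5 ± 0.62, with an adjusted p of 0.372. HORVU4Hr1G010770 differed by 1.30 ± 0.52, with a limma adjusted p of 0.355, and HORVU6Hr1G000780 by 1.12 ± 0.48, with an adjusted p of 0.377. These 4 estimates lay on both sides of 0. At W3.5, 0.513% of tested genes were called lower and 1% higher, and 0 members had an unadjusted p under 0.05.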

How the data were processed

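RNA-seq libraries were made with a kit that does not mark strand, per the labels' protocols, from 15 to 20 pooled spikes per biological replicate. FastQC, HISAT2 2.0.0 and HTSeq 0.11.2 appear in the submitters' processing notes. Build and annotation are not stated there or in the labels. Reads from overlapping genes on opposite strands cannot be told apart. The deposited table held FPKM values, 1 mean of 3 libraries per group. The unit was taken from the values themselves, as the file header does not name it.

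A group mean is a sum of whole reads, each divided by its library's depth, over the gene length. Ratios of low values gave the 12 depths, which came out within 0.0205 of whole numbers, although whole numbers were not imposed. Reads and lengths were then searched for each gene with python 3.11.15, numpy 2.4.6 and numba 0.67.0, over lengths of 30 to 8000 bases. Genes were kept where the best solution had a probability over 0.99. For run time, genes with a highest mean above 40 FPKM or a lowest non-zero mean above 6 FPKM were not tried. Reads were recovered for 11357 genes (39.1%). Per dispersion, 150 members of up to 10 FPKM were simulated. At dispersions of 0.05, 0.2, 0.8 and 1.5, 128, 105, 75 and 82 were recovered. In all of these the ratio of reads to length, and so the FPKM, was right in every library. Reads and length can share a factor, so whether each was right by itself was not scored. Of 500 real genes with a highest mean of 0.5 to 8 FPKM and no mean of 0, 307 were recovered. Once their columns had been shuffled against each other, 0 were recovered.

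limma 3.58.1 in R 4.3.3 used log2(FPKM + 1), a trend of variance with level, 1 model of 4 group means and 5 contrasts, over genes that reached 1 FPKM in 3 or more libraries. Each log2 difference with a limma p has its standard error from this model. The p-values measure the spread between recovered libraries, which were taken as the biological replicates of the labels. In simulated data for the WT stage contrast at a dispersion of 0.05, 52 of 100 genes with a change of -1 were called. Of those with -2, 100 of 100 were called. The other genes of the 4094 were left unchanged, and 8 of them were called falsely. Some members varied far more, as HORVU5Hr1G107340 in WT at W2.0, at 8.24 ± 9.40 FPKM (SD, n = 3). The simulated rates cannot be carried over to such members. The table holds no counts per library, so the main test was on log2 values, and limma-voom on the recovered reads was an alternative. For genes without recovered reads, the authors' means are given with no SD, n or test.

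The members and gene lists were chosen with earlier results of these data known. Genes were named by fixed rules: the 10 highest members at W2.0, the 10 with the largest smaller difference, the 5 with the lowest adjusted p in each stage contrast, and the 3 on either side of the limit. Members of runs, members shown for uneven libraries and HORVU4Hr1G010770, HORVU6Hr1G000780 and HORVU1Hr1G059900 were chosen after their values were seen. In the reference table, 0 identifiers matched. Alternatives were other pseudocounts, filters and scalings, limma-voom and leaving out libraries.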

Additional observations from a re-analysis of the deposited data

How the results depend on the processing

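The number of genes lower in both genotypes depended on the pseudocount. It was 439 with 0.1 FPKM and 234 with 0.5 FPKM in place of 1 FPKM, and 139 and 145 of the 150 members were among them. It was 146 to 166 under the other 3 alternatives tried. The count of members called in the WT stage contrast, 6 by limma, was 2 with no filter on low values, 1 with limma-voom and 1 without WT W2.0 library B and mutant W2.0 library C together, an alternative chosen after seeing the data. Leaving out single libraries gave 1 to 7, with 1 for WT W2.0 library B or C and for each WT W3.5 library. Over all tested genes, leaving out single libraries gave 10 to 72 calls in this contrast. In the mutant stage contrast the count was 1 with a pseudocount of 0.1 FPKM and 1 with size factors from the median ratio, against 0, and 0 to 1 over single libraries, with 1 for mutant W2.0 library A. In the genotype contrast at W2.0 it was 1 with limma-voom. The counts for the genotype at W3.5 and the interaction were 0 in all 17 alternatives run for each. Of the 24 recovered members, 11 to 24 met the limit with 1 library left out and 8 without both libraries named above. No paired analysis was possible because the recovered libraries carry no replicate number. The library values cover 24 members of low level, and the 126 others rest on 1 mean per group.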
